A study of Mus musculus with 12 samples.

Results

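The miR-183/96/182 cluster is a group of 3 miRNA hairpins, mir-183, mir-96 and mir-182, that are transcribed together. Its members were taken as every entry of the count table named for mir-183, mir-96 or mir-182, whether a mature arm or a precursor, without regard to upper or lower case. This gave 8 of 1053 entries, of which 5 were mature arms (mmu-miR-183-5p, mmu-miR-183-3p, mmu-miR-182-5p, mmu-miR-182-3p and mmu-miR-96-5p) and 3 were precursors (mmu-mir-183, mmu-mir-182 and mmu-mir-96). The prefix mmu, for mouse, is left out from here on. The table held 633 mature arms and 420 precursors in all. Small RNA had been sequenced from sorted mouse embryonic cells in 12 libraries, 3 for each day of embryonic development (E) from E8.5 to E11.5. The E8.5 libraries came from endoderm of genotype Foxa2-CreER, tdtomato+, sorted from whole embryos. A tamoxifen-inducible Cre recombinase in the Foxa2 locus, activated by tamoxifen given at E6.5, was used to mark the endoderm. The E9.5, E10.5 and E11.5 libraries were labelled pancreas and had the genotype Pdx1-Cre, tdtomato+, with cells sorted from the trunk. In these, Cre expressed from the promoter of Pdx1, a gene of the early pancreas and duodenum, was used to mark pancreatic progenitors. The cells of all 12 libraries were sorted by tdTomato, a red fluorescent protein that they made once Cre had acted. Cre driver and dissected region changed together with stage between E8.5 and E9.5, and the library names carried a number that changed with stage, so that these differences cannot be told apart from stage. The males of the crosses carried a mir-302 allele replaced by GFP, and the mir-302 genotype of the embryos in each library is unknown.

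miRNAs are short RNAs cut from hairpin precursors, and the bases near their 5′ end, called the seed, pair with target mRNAs. The long transcript of a cluster is cut into separate hairpins in the nucleus, and each hairpin is cut again in the cytoplasm into a 5p and a 3p arm, of which usually 1 is retained. The miR-183/96/182 cluster is best known from sensory organs, such as the hair cells of the inner ear and the photoreceptors of the retina, and mutation of the miR-96 seed causes hearing loss.

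In RefSeq, on the mouse assembly GRCm38.p6, the 3 hairpins lie on the minus strand of chromosome 6 within chr6:30165918-30169737. Read along the transcript, Mir183 (chr6:30169668-30169737) comes first, Mir96 (chr6:30169446-30169551) follows after 116 bases, and Mir182 (chr6:30165918-30165992) follows after a further 3453 bases. None of the 3 overlapped another gene in the GENCODE annotation of the same assembly, so that the cluster is intergenic. The nearest protein-coding genes are Nrf1, 12459 bases from Mir182, and Ube2h, 41551 bases from Mir183. The 5p arms, which carried nearly all mature counts of the cluster, are shown first with the seed (bases 2 to 8) in capitals.
miR-183-5p: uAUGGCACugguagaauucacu
miR-96-5p: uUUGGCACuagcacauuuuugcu
miR-182-5p: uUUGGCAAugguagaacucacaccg
No 2 of these arms share a seed. Counting positions from 1 at the 5′ end, the seed of miR-183-5p differs from that of miR-96-5p by A2U, and that of miR-96-5p differs from that of miR-182-5p by C8A. Bases 3 to 7 are the same in all 3 arms, and of the 1679 mouse mature arms in the RefSeq table only 5 hold this stretch at that position. Over their whole length, miR-183-5p and miR-182-5p are the pair most alike, with 18 of 22 positions identical and the substitutions A2U, C8A, U17C and U22A. miR-183-5p and miR-96-5p share 13 of 22 positions. No other mouse arm has the seed of miR-183-5p or miR-182-5p, and only miR-1271-5p, which had no entry in the count table, has that of miR-96-5p.

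The hairpins of mir-183 and mir-182 are shown because reads were counted on them apart from their arms, with both mature arms in capitals.
mir-183 hairpin: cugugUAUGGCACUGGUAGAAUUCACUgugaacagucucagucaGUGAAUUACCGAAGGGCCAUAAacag
mir-182 hairpin: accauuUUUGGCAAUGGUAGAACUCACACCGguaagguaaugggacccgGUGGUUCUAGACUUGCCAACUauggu
The mir-183 hairpin is 70 bases long, with 5 bases before the 5p arm, a loop of 17 bases between the arms and 4 bases after the 3p arm. The mir-182 hairpin is 75 bases long, with 6 bases before the 5p arm, a loop of 18 bases and 5 bases after the 3p arm. Reads had been kept from a length of 17 bases upwards, so that any longer read within the mir-183 hairpin held bases of an arm. How the authors' counting divided reads between an arm and its precursor is not given in the sources used here. A precursor count is therefore a count of reads assigned to that entry and not of uncut hairpins.

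Library totals were lowest at E9.5, with 53996 to 80075 counts, and lay between 133435 and 1103383 counts in the other 9 libraries. The distribution of counts over entries had a second peak, which lay at 30.2 to 123 reads depending on the library. On that scale miR-183-5p stood at 16.0 to 764 times the second peak and miR-96-5p at 0.0243 to 6.25 times. Whether reads arose in steps of that size was not tested, and if they did, miR-96-5p rested on few of them. Precursor entries took 26.2% ± 8.55 of counts at E9.5 (SD, n = 3) and 10.3% to 13.0% on average at the other stages. The entries mir-6236 and mir-6240 alone took 18.3% ± 8.67 of E9.5 counts. Of the 8 cluster entries, 6 passed the filter on low counts. The other two were miR-182-3p, with 38 counts in E8.5 replicate 2 and none elsewhere, and the precursor mir-96, with 24 counts over 4 libraries. No cluster entry had the same counts as another entry. Values below are counts scaled to a common library total (CPM) with TMM-scaled library sizes unless stated. They are not divided by length, and they measure RNA in sorted cells in bulk, so that fewer cells of a type and less RNA per cell cannot be told apart.

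Both abundant arms of the cluster were among the 10 most counted mature arms in every library. As a share of unscaled counts, its entries together took 7.08% ± 0.954 (E8.5), 7.05% ± 1.72 (E9.5), 14.1% ± 1.47 (E10.5) and 15.2% ± 1.33 (E11.5), as the mean ± SD of 3 libraries. Every E10.5 and E11.5 library, at 12.5% or more, lay above every E8.5 and E9.5 library, of which the highest was at 8.64%. Among mature arms, miR-182-5p ranked between 2 and 6 in the 12 libraries and miR-183-5p between 2 and 10. miR-96-5p ranked between 51 and 226.

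miR-183-5p is the arm retained from the mir-183 hairpin. It was at 20743, 25080 and 28692 CPM in the 3 E8.5 libraries and at 21365, 22075 and 29201 CPM in the E9.5 libraries. At E10.5 it was at 48387, 68388 and 39604 CPM, and at E11.5 at 52643, 57969 and 70932 CPM. The E8.5 and E9.5 libraries overlapped, as did those of E10.5 and E11.5, and all libraries of the later pair of stages lay above all libraries of the earlier pair. miR-182-5p is the arm retained from the mir-182 hairpin. Its level was 26917, 30319 and 30156 CPM at E8.5 and 43284, 38079 and 31148 CPM at E9.5. It was 68606, 76113 and 54305 CPM at E10.5 and 55501, 64345 and 67850 CPM at E11.5. After TMM scaling, the E9.5 libraries of miR-182-5p lay between those of E8.5 and E10.5 without overlap with either, and the E10.5 and E11.5 libraries overlapped. As a share of unscaled counts, E9.5 replicate 3 was at 2.28%, below all E8.5 libraries (3.00% to 3.52%). That library had a TMM factor of 0.733.

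The mir-183 precursor entry followed the same order. It was at 8110, 10288 and 9790 CPM at E8.5 and at 10561, 10200 and 6953 CPM at E9.5. It reached 26586, 29338 and 22102 CPM at E10.5 and 23001, 29597 and 26875 CPM at E11.5. All libraries of the later pair of stages lay above all libraries of the earlier pair, with no library between 10561 and 22102 CPM. The mir-182 precursor entry averaged 907 ± 93.5, 958 ± 527, 1427 ± 619 and 938 ± 347 CPM in order of stage (SD, n = 3), and its libraries overlapped in every pair of stages.

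miR-96-5p, the arm that shares a seed base with each of the other two where they differ, was far less abundant and varied more. The E8.5 libraries held 262, 173 and 431 CPM and the E9.5 libraries 32.5, 1942 and 3489 CPM. The E10.5 libraries held 1128, 928 and 167 CPM and the E11.5 libraries 329, 540 and 248 CPM. The lowest and the highest of the 12 libraries were both of E9.5, where the counts behind them were 2 and 138. Stages overlapped in all 6 comparisons. miR-183-3p, the other arm of mir-183, made up 0.342% of the counts of the 2 arms over all libraries. The E8.5 libraries held 39, 1 and 33 counts of it, the E9.5 libraries 2, 0 and 1, the E10.5 libraries 94, 1 and 0, and the E11.5 libraries 148, 185 and 258. Its counts were above 100 in all 3 E11.5 libraries and in no other, but these counts are not scaled for depth. In CPM, E10.5 replicate 1 was the highest of the 12 libraries at 358, and the E11.5 libraries were at 338, 169 and 311. If every read is taken as independent, the libraries with no count of miR-183-3p could have held up to the level that 3 counts represent. This is 32.0 CPM in E9.5 replicate 2 and 11.7 CPM in E10.5 replicate 3. If reads arose in steps of the second peak, at 58.2 and 86.1 reads there, the bound would be higher.

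**Figure D1:**
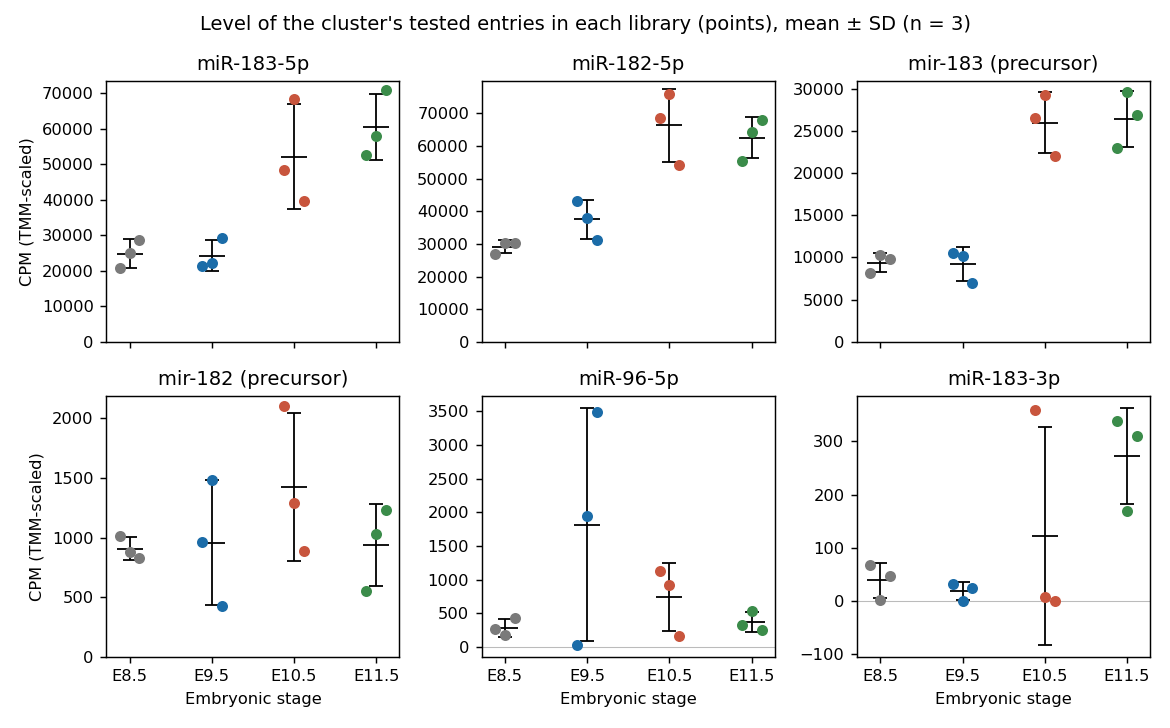
TMM-scaled CPM (vertical axes, linear, a separate scale for each entry) of the 6 cluster entries that passed the filter, by embryonic stage (horizontal axis), with a point for each library and bars for the mean ± SD (n = 3). For miR-183-5p, miR-182-5p and the mir-183 precursor all E10.5 and E11.5 points lie above all E8.5 and E9.5 points, whereas the points of miR-96-5p spread from 32.5 to 3489 CPM within E9.5.

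To ask how the cluster differed between Pdx1-Cre-labelled cells and E8.5 endoderm, the later stages were compared with E8.5 by the quasi-likelihood test of edgeR, fitted to all 571 entries that passed the filter with Benjamini-Hochberg adjustment. At E10.5, 3 of the 6 tested cluster entries were called (adjusted p under 0.05), all higher, where 8.58% of all entries were called and 4.38% were called higher. miR-182-5p was 2.27-fold higher (log2 fold change 1.18, SE 0.21, adjusted p 3.61e-04). miR-183-5p was 2.09-fold higher (1.07, SE 0.24, adjusted p 0.00548), and the mir-183 precursor entry 2.76-fold higher (1.47, SE 0.29, adjusted p 0.00144). The E10.5 libraries of these 3 entries did not overlap those of E8.5, and over all entries the E10.5 libraries all lay above for 13%. The call of miR-183-5p was lost without E8.5 replicate 2 (1.02, adjusted p 0.0814) and without E10.5 replicate 2 (0.79, adjusted p 0.116). It was also lost with counts under 10 set to 0 (0.71, adjusted p 0.0872) and when counts were divided by each library's second peak (0.53, adjusted p 0.0701). Those of miR-182-5p and the precursor were kept in all 12 fits that left out 1 library each and in the 11 and 10 alternatives, respectively, that kept all libraries and tested them.

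The same 3 entries were called higher at E11.5 than at E8.5, where 11.6% of all entries were called and 5.25% were called higher. The log2 fold changes were 1.28 for miR-183-5p (SE 0.24, adjusted p 8.12e-04), 1.10 for miR-182-5p (SE 0.21, adjusted p 7.39e-04) and 1.49 for the mir-183 precursor entry (SE 0.29, adjusted p 9.52e-04). The calls of both arms were kept in 11 of 11 alternatives that kept all libraries, that of the precursor in 10 of 10 that tested it, and all 3 in the 12 fits that left out 1 library. miR-96-5p (0.36, SE 1.08), miR-183-3p (2.78, SE 2.00) and the mir-182 precursor entry (0.04, SE 0.79) had adjusted p of 0.917, 0.527 and 0.984. The E11.5 libraries of miR-183-3p all lay above those of E8.5, which held for 17.3% of all entries. These E8.5 comparisons share their E8.5 libraries, and over all entries the median change was -0.26 at E10.5 and -0.07 at E11.5.

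Within Pdx1-Cre-labelled cells, E10.5 was compared with E9.5. The same 3 entries were called higher, where 4.38% of all entries were called and 1.58% were called higher. miR-183-5p was 2.15-fold higher (1.11, SE 0.24, adjusted p 0.00853), miR-182-5p 1.77-fold higher (0.82, SE 0.21, adjusted p 0.0222) and the mir-183 precursor entry 2.81-fold higher (1.49, SE 0.29, adjusted p 0.00615). The libraries did not overlap for these 3 entries, and the E10.5 libraries all lay above for 8.76% of all entries. These calls were not kept under every scaling or test. RLE size factors, which shifted the median of all entries by -0.46, gave 0.59 for miR-183-5p, 0.34 for miR-182-5p and 1.02 for mir-183, and called none of them (adjusted p 0.328, 0.451 and 0.0654). With TMM factors kept, limma voom gave 1.01, 0.73 and 1.41 and also called none (adjusted p 0.444, 0.354 and 0.204). Library size alone kept all 3 calls. The calls also rested on single libraries, with all 3 lost when E10.5 replicate 1 (0.97, 0.61 and 1.29) or E10.5 replicate 2 (0.86, 0.69 and 1.37) was left out. Leaving out E9.5 replicate 2 ended the calls of miR-183-5p (0.87) and miR-182-5p (0.67), and that of miR-182-5p was also lost when E8.5 replicate 2 (0.85) or E11.5 replicate 3 (0.85) was left out.

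At E11.5 against E9.5 the 3 entries were again called higher, where 4.55% of all entries were called and 1.23% were called higher. The log2 fold changes were 1.32 for miR-183-5p (SE 0.24, adjusted p 0.00151), 0.74 for miR-182-5p (SE 0.20, adjusted p 0.0363) and 1.52 for the mir-183 precursor entry (SE 0.29, adjusted p 0.00198). The libraries did not overlap for these entries or for miR-183-3p, and the E11.5 libraries all lay above for 16.6% of all entries. The median over all entries was 0.66, and RLE size factors, which shifted it by -0.71, gave 0.55, 0.01 and 0.80 and called none. DESeq2 called none of these 3 and called miR-96-5p lower at E11.5 (-3.15, adjusted p 0.0340), where edgeR gave -2.29 (SE 1.14, adjusted p 0.289). The calls of miR-183-5p and mir-183 were kept in all 12 fits that left out 1 library. That of miR-182-5p was kept in 3 of them, those without E8.5 replicate 1, E9.5 replicate 1 or E11.5 replicate 1, with a change of 0.53 to 0.97 over the 12.

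In the E9.5 against E8.5 comparison the edgeR test called 0 of the 6 entries, and 1, miR-96-5p, had an unadjusted p under 0.05. It called 5.6% of all entries. miR-183-5p (-0.04, SE 0.24) and the mir-183 precursor entry (-0.03, SE 0.28) had adjusted p of 0.922 and 0.961, beside a median of -0.84 over all entries. miR-182-5p was at 0.36 (SE 0.20, adjusted p 0.279), and its E9.5 libraries lay above all E8.5 libraries in scaled CPM, which held for 6.83% of entries. In unscaled shares E9.5 replicate 3 lay below all E8.5 libraries. RLE size factors shifted the median by 0.64 and gave miR-182-5p a called change of 0.99 (adjusted p 0.0111), with 0.62 for miR-183-5p and 0.59 for mir-183, neither called. DESeq2 called miR-182-5p (0.99, adjusted p 0.0258) and miR-96-5p (3.38, adjusted p 0.0148), and limma voom called 0 of the 6. The change of miR-96-5p was 2.65 (SE 1.15, adjusted p 0.211) with all libraries, and it was called without E9.5 replicate 1 (3.10, adjusted p 0.0397).

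Between E10.5 and E11.5 the edgeR test called 0 of the 6 entries, 0 had an unadjusted p under 0.05, and DESeq2 and limma voom each called 0 of them. The edgeR test called 0.35% of all entries. The log2 fold changes of miR-183-5p (0.21, SE 0.24), miR-182-5p (-0.09, SE 0.20) and the mir-183 precursor entry (0.03, SE 0.28) had adjusted p of 0.852, 0.939 and 0.990. Over the 6 comparisons the lowest adjusted p was 0.211 for miR-96-5p, 0.377 for miR-183-3p and 0.669 for the mir-182 precursor entry. With standard errors of 1.08 to 1.15 for miR-96-5p, a change of the size seen in the abundant arms was not detectable for it.

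**Figure D2:**
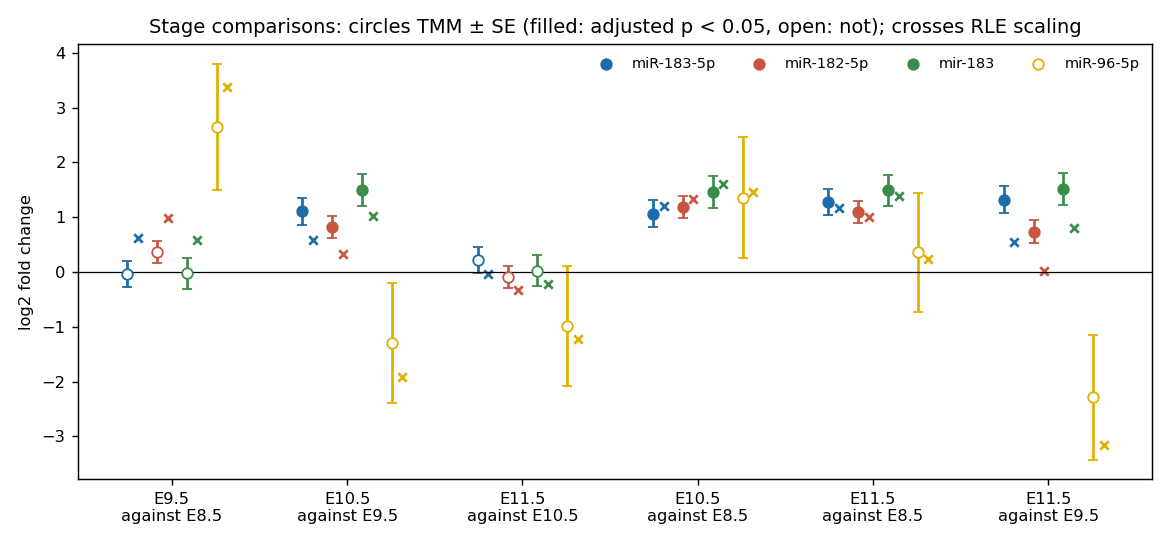
Log2 fold changes (vertical axis) of miR-183-5p, miR-182-5p, the mir-183 precursor entry and miR-96-5p in the 6 stage comparisons (horizontal axis), as circles with SE from the TMM-scaled edgeR fit, filled where the adjusted p was under 0.05, and as crosses from RLE scaling. Filled circles lie between 0.74 and 1.52. The crosses of E10.5 and E11.5 lie below the circles against E9.5 and close to them against E8.5, and the crosses of E9.5 against E8.5 lie above the circles.

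The summed levels of several marker lists of other cell types differed between the stages compared. The liver miRNAs (2 of 2 in the table) summed to 461 to 591 CPM in the E8.5 libraries and to 38783 to 130820 CPM in the 9 libraries of later stages. The only liver miRNA that passed the filter was called higher than at E8.5 at each later stage, and was not called between later stages. The neural list (7 of 7) summed to 3888 to 4977 CPM at E8.5 and 549 to 2560 CPM at the later stages, with 1 or 2 of the 7 at 0 in all libraries of a stage. None of the 4 neural miRNAs that passed the filter was called in any comparison. The muscle list (3 of 3) ranged from 6270 to 26465 CPM in E8.5 libraries, from 5288 to 26850 CPM in E9.5 libraries and from 266 to 3517 CPM over the last 2 stages. The only muscle miRNA that passed the filter was called lower than at E9.5 in both E10.5 (-3.03) and E11.5 cells (-3.98). It was also called lower than at E8.5 in both E10.5 (-3.41) and E11.5 cells (-4.36). The endothelial list (2 of 2) summed to 1821 to 2274 CPM at E8.5 and 32.5 to 430 CPM at the later stages, and neither miRNA was called in any comparison. Of 5 mesenchymal miRNAs, 1 was called lower at E9.5 than at E8.5. Called higher were 1 at E10.5 against E9.5, 1 at E10.5 against E8.5 and 2 at E11.5 against E8.5. The leukocyte list (2 of 4 in the table) summed to 10.7 to 2655 CPM at E9.5, at most 59.1 CPM at E8.5 and at most 3.81 CPM over E10.5 and E11.5. At E9.5 miR-223-3p averaged 1444 CPM and miR-142a-5p 3.56 CPM, and miR-142a-5p was higher at E8.5 (19.2 CPM). Their part in the levels of the cluster was not tested.

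Lists of epithelial and of endocrine pancreatic miRNAs were compared beside the cluster. Of 7 epithelial miRNAs (miR-200 family, miR-203-3p and miR-205-5p), 4 were called higher at E11.5 than at E8.5, where 5.25% of all entries were called higher. The 7 had a median log2 fold change of 2.01 against -0.07 over all entries. Between E9.5 and E10.5 their log2 fold changes ran from -2.12 for miR-203-3p (adjusted p 0.192) to 2.19 for miR-141-3p (adjusted p 0.505), and their summed level was 20976 to 49022 CPM at E9.5 and 18829 to 27897 CPM at E10.5. All 3 endocrine miRNAs, miR-375-3p, which regulates islet hormone secretion, miR-7a-5p and miR-7b-5p, were called higher in both E10.5 and E11.5 cells than in E8.5 endoderm, with medians of 2.95 and 2.54. Of all entries, 4.38% and 5.25% were called higher in these comparisons. Between E9.5 and E10.5, 1.58% of all entries were called higher, and so were 2 of the 3 endocrine miRNAs. These were miR-375-3p (1.57, SE 0.25, adjusted p 7.81e-04) and miR-7a-5p (1.13, SE 0.26, adjusted p 0.0128). At E9.5 against E8.5, where no cluster entry was called, 1 of the 7 epithelial and 2 of the 3 endocrine miRNAs were called higher. They were miR-203-3p (4.69), miR-7a-5p (1.81) and miR-7b-5p (5.40), beside 5.6% of all entries called in either direction. The endocrine list summed to 22964 to 27495 CPM at E8.5 and 101869 to 144853 CPM at E10.5.

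Across the 12 libraries, the levels of the abundant members followed each other. On log2 CPM, Pearson's r was 0.88 between miR-183-5p and miR-182-5p, 0.91 between miR-183-5p and the mir-183 precursor entry and 0.96 between miR-182-5p and that entry. For miR-96-5p, r with these 3 entries lay between -0.03 and 0.16. The points of each correlation share their libraries, depth and scaling, so that these values are descriptions. Among 259 mature arms outside the cluster with a mean of at least 100 CPM, the arms most like miR-182-5p were miR-375-3p (r = 0.97), miR-379-5p (0.93) and miR-7a-5p (0.92). Those most like miR-183-5p were miR-379-3p (0.87), miR-3099-3p (0.86) and miR-99a-5p (0.85). The mir-183 precursor entry was most like miR-375-3p (0.95), miR-379-5p (0.89) and miR-1224-5p (0.88). The closest to miR-96-5p were miR-666-3p (0.87), miR-154-3p (0.78) and miR-148a-3p (0.78). For miR-183-3p they were miR-125a-5p (0.73), miR-99b-5p (0.63) and miR-340-5p (0.62), and for the mir-182 precursor entry miR-485-3p (0.73), miR-543-3p (0.67) and miR-540-3p (0.63).

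To compare the co-transcribed members without scaling between libraries, each arm was expressed as a share of the summed counts of miR-183-5p, miR-182-5p and miR-96-5p within a library. The share of miR-182-5p was 56.2%, 54.6% and 50.9% in the E8.5 libraries and 66.9%, 61.3% and 48.8% in those of E9.5. The E10.5 libraries had 58.1%, 52.3% and 57.7%, and the E11.5 libraries 51.2%, 52.4% and 48.8%. The widest 95% Wilson interval of these shares was ± 1.95 percentage points, which covers counting error only. miR-183-5p took nearly all of the rest, at 45.6% ± 2.59, 38.1% ± 6.73, 43.4% ± 3.22 and 48.9% ± 1.94 in order of stage (SD, n = 3). miR-96-5p took 0.529% ± 0.209, 2.88% ± 2.72, 0.590% ± 0.391 and 0.307% ± 0.130. Within E9.5 the miR-96-5p share ran from 0.0503% (95% Wilson interval 0.0138% to 0.183%) to 5.47% (4.64% to 6.42%). These intervals take every read as independent. In multiples of each library's second peak, miR-96-5p stood at 0.0243, 3.13 and 2.24 in the E9.5 libraries. Whether the spread exceeds the sampling of so few multiples, if reads arose in such steps, was not tested.

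The shares were not distinguishable between stages in an exact permutation test over all 369600 divisions of the libraries, which could have reached a p of 6.494e-05. The exact p was 0.0642 for miR-183-5p, 0.313 for miR-182-5p and 0.172 for miR-96-5p, and the values adjusted over the 4 share tests were 0.257, 0.371 and 0.343. Single E9.5 libraries decided this outcome. Without E9.5 replicate 3, the adjusted exact permutation p was 0.00883 for both miR-183-5p and miR-182-5p, and without E9.5 replicate 1 it was 0.0317 for miR-96-5p. E9.5 replicate 3 was the library with the fewest counts, 53996, and was 1 of 2 libraries whose reads were kept to a length of 36 rather than 35 bases. The part of depth and read length in its shares was not tested. With precursor reads added to their 5p arm, a setting chosen after seeing the data, the adjusted p for miR-183-5p was 0.0133.

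By counts, miR-182-5p exceeded miR-183-5p in 11 of 12 libraries. The ratio of miR-183-5p to miR-182-5p ran from 0.494 to 1.05, and divided by the arm lengths of 22 and 25 bases it ran from 0.561 to 1.19 and exceeded 1 in 6 of 12 libraries. A single read can span a whole arm, so that counts need not rise with arm length. The division by length may therefore favour the shorter arm. With the arms and the precursor of each hairpin summed, the mir-183 locus exceeded the mir-182 locus in 10 of 12 libraries, with ratios of 0.722 to 1.42. The order of the 2 loci thus depended on whether precursor reads were included. Both exceeded miR-96-5p in all 12 libraries, miR-182-5p by 8.93-fold to 1330-fold in counts and by 8.21-fold to 1224-fold per base of arm length.

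The precursor entry accounted for a large part of the mir-183 counts. Its share of the counts of the mir-183 locus (precursor, 5p arm and 3p arm) was 28.0%, 29.1% and 25.4% at E8.5 and 33.0%, 31.6% and 19.2% at E9.5. It was 35.3%, 30.0% and 35.8% at E10.5 and 30.3%, 33.7% and 27.4% at E11.5. The E10.5 libraries lay above the E8.5 libraries, the E9.5 libraries held the lowest of the 12 values and 2 above all of E8.5, and all other pairs of stages overlapped. The means were 27.5% ± 1.90, 28.0% ± 7.60, 33.7% ± 3.21 and 30.5% ± 3.18 (SD, n = 3). Stages did not differ beyond the spread of the libraries (exact permutation p 0.371, adjusted p 0.371), and the adjusted p ran from 0.155 to 0.641 over the 12 tests that left out 1 library each. The 95% Wilson interval was at most ± 2.08 percentage points in any library.

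**Figure D3:**
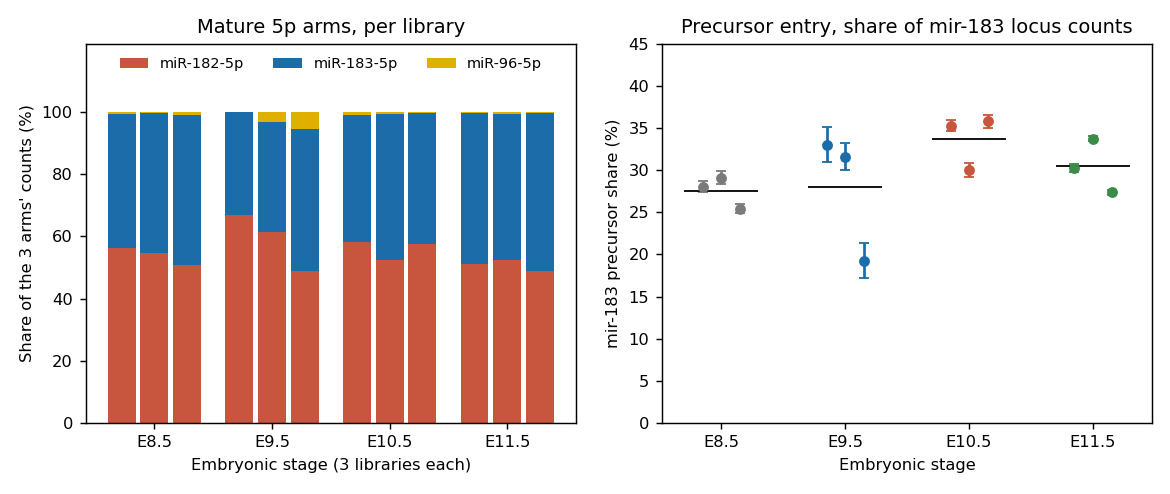
Left, share (%) of miR-182-5p, miR-183-5p and miR-96-5p in the summed counts of these 3 arms, with a stacked bar for each library grouped by stage. Right, share (%) of the mir-183 precursor entry in the counts of its locus, with a point and 95% Wilson interval for each library and a line for the stage mean. The precursor share lies between 19.2% and 35.8% in all 12 libraries, and the lowest point is E9.5 replicate 3.

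In the mir-182 locus, by contrast, the precursor entry took 1.99% of counts over all libraries, and in the mir-96 locus 1.07%. The ratio of precursor to 5p arm was 0.238 to 0.558 for mir-183 and 0.00999 to 0.0389 for mir-182, so that the ranges of the 12 libraries did not overlap. The mir-183 precursor entry exceeded the mir-182 precursor entry 6.88-fold to 41.5-fold. Over the 287 loci with at least 100 counts whose precursor and arms share a name, mir-183 had the most counts (321177) and mir-182 the second most (252533). These are unscaled sums over the 12 libraries, in which deeper libraries weigh more. The mir-183 precursor entry also had the most counts of the 287 precursors (98137). Its share of 30.6% over all libraries ranked 71 of 287, where the median locus was at 8.51%. Among the 65 loci with at least 10000 counts, the median was 6.74% and mir-183 ranked 8. The 7 loci above it were mir-6240, mir-7a-1, mir-92a-1, mir-7a-2, mir-485, mir-483 and mir-5099. Of these, mir-7a-1, mir-7a-2 and mir-92a-1 are numbered gene copies, and the arm they share with another copy was listed under a name without that number and so was left out of their locus counts.

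**Figure D4:**
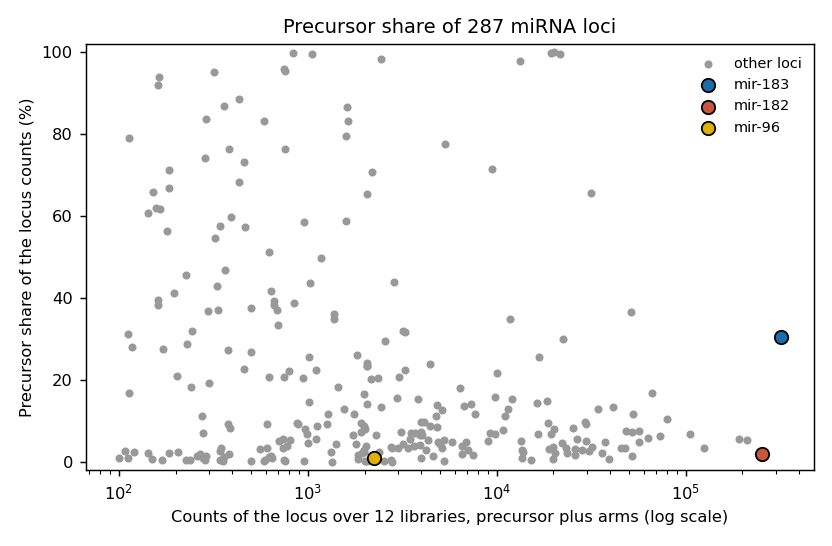
Share (%) of the precursor entry in the counts of its locus (vertical axis) against the counts of the locus over the 12 libraries (horizontal axis, log scale), with a point for each of 287 loci and the 3 loci of the cluster in colour. Among these 287 loci, mir-183 (30.6% of 321177 counts) and mir-182 (1.99% of 252533 counts) have the most counts and lie far apart in precursor share. The counts are unscaled sums, in which deeper libraries weigh more, and leave out arms listed under another name.

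As part of all precursor counts, the mir-183 entry took 9.76% ± 1.19, 3.93% ± 2.20, 19.2% ± 1.11 and 25.9% ± 2.38 in order of stage (SD, n = 3). It was the most counted precursor in 3 of 3 E11.5 libraries, ranked 1 or 2 at E8.5 and E10.5, and ranked 3 to 5 at E9.5. The E9.5 value was set beside the 18.3% of all counts that mir-6236 and mir-6240, both precursor entries, took at that stage.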

How the data were processed

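The authors processed the reads with the COMPSRA pipeline on mm10 per the study's methods, with the adapter and 4 random bases trimmed and alignment by STAR. The submitters' processing notes also named GRCm39. Per the file headers, reads of 17 to 35 bases were kept in 10 libraries and of 17 to 36 bases in 2, E8.5 replicate 1 and E9.5 replicate 3. The deposited values were raw read counts per mature or precursor miRNA entry in 12 libraries, with no molecular identifiers counted, so that intervals and the floor of 3 counts cover counting error only. The labels do not say that replicates came from separate litters, so p-values measure the spread between these libraries.

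Counts were tested with edgeR 4.0.16 (glmQLFit, glmQLFTest, TMM, filterByExpr with minimum count 10 and minimum total 15) in R 4.3.3, in 1 fit of 12 libraries with stage as the factor. A call was an adjusted p under 0.05 (Benjamini-Hochberg over 571 entries). CPM used library totals times TMM factors (0.733 to 1.17). Shares within a library were compared by an exact permutation test of the between-stage sum of squares, which is two-sided by construction. The code was tested on simulated data. In a simulated E10.5 against E9.5 comparison, 34 of 200 entries changed 8-fold were called, with 0 false calls, so that an uncalled entry may still have changed. Alternatives were RLE size factors, library size alone, no filter, DESeq2 1.42.0, limma 3.58.1 voom, mature arms only, other count scales, a replicate block and leaving out each library. Every cluster entry was named, together with the 3 mature arms of highest Pearson r to each (log2 CPM, prior count 2, mean of at least 100 CPM) and the epithelial and endocrine lists. The members and lists were chosen with earlier results of these data known. Sequences were those of RefSeq for GRCm38.p6, in which all 3 hairpins and 6 arms of the cluster were found, and gene positions those of GENCODE for the same assembly. The erythroid and mesenchymal marker lists summed to 32.5 to 835 CPM and 1408 to 13131 CPM over the 12 libraries, and no leukocyte marker passed the filter.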

Additional observations from a re-analysis of the deposited data

How the results depend on the processing

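The number of cluster entries called at E10.5 and E11.5 against E8.5, and the 0 calls at E11.5 against E10.5, stayed within 1.5 times the reported count under every alternative. At E10.5 against E9.5 the 3 calls became 0 with RLE size factors, limma voom or only the 2 stages compared, and 1 with DESeq2 or without mir-6236 and mir-6240, and were 0 to 3 when 1 library was left out. At E11.5 against E9.5 the number of calls became 0 with RLE, voom or the 2 stages alone, 1 with DESeq2, which lost all 3 and called miR-96-5p lower, and 1 with mature arms only, in which mir-183 was not tested. At E9.5 against E8.5 the 0 calls became 1 with RLE, without mir-6236 and mir-6240 or with the 2 stages alone and 2 with DESeq2, and were 0 to 1 when 1 library was left out. The cause was not tested.

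Uncalled changes that turned in sign were as follows. For E9.5 against E8.5, miR-183-5p was at 0.62 (RLE), 0.62 (DESeq2), 0.076 (mature arms only), 0.39 (without mir-6236 and mir-6240) and 0.58 (2 stages alone), and at -0.19 to 0.28 with 1 library left out. mir-183 was at 0.59 (RLE), 0.59 (DESeq2), 0.048 (no filter), 0.020 (voom), 0.36 (without mir-6236 and mir-6240) and 0.55 (2 stages alone), and at -0.19 to 0.27 with 1 library left out. miR-182-5p was at -0.075 with counts under 10 set to 0. For E11.5 against E10.5, miR-183-5p was at -0.041 (RLE) and -0.041 (DESeq2). mir-183 was at -0.21 (RLE), -0.21 (DESeq2) and -0.075 (2 stages alone), and at -0.12 to 0.21 with 1 library left out. miR-182-5p was at 0.080 with counts under 10 set to 0, at 0.0036 when the second count level was the divisor of the counts, and at -0.21 to 0.094 with 1 library left out. miR-96-5p at E11.5 against E8.5 ran from -0.10 to 0.77 with 1 library left out.

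Of the share tests, that of miR-183-5p had an adjusted exact permutation p of 0.0133 with precursor reads added to the 5p arm. With 1 library left out, the adjusted p ran from 0.00883 to 0.405 for miR-183-5p, 0.00883 to 0.539 for miR-182-5p, 0.0317 to 0.466 for miR-96-5p and 0.155 to 0.641 for the mir-183 precursor share.

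Same-numbered libraries of different stages showed little shared deviation (correlations -0.15 to 0.11). Whether they shared a preparation is not given in the labels and cannot be told from these correlations. With a replicate block the calls were 0, 3 and 0 for adjacent stages and 3 in each other comparison, and the precursor share had a p of 0.346. E9.5 replicate 1 held only 2 counts each of miR-96-5p and miR-183-3p, so that their values there have wide counting error.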
